A study of Homo sapiens with 6 samples.

Results

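Untreated 143B cells, an established human osteosarcoma line, were described from the 3 control wells of the series, which make up 3 of its 6 RNA-seq libraries. They were chosen by the treatment label alone, and no expression value entered the choice. All wells came from 1 plate on which the cells grew for 24 h, after which 3 wells drawn at random as controls grew for another 24 h until collection. The labels do not say whether they received a vehicle. The other 3 wells received celastrol, a plant triterpene, and were not compared here. Each library is 1 well of the same line on the same plate, so the standard deviations below (SD, n = 3) measure the spread between wells, which may be technical, and say nothing of how independent cultures vary.

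Osteosarcoma is a bone tumour whose cells make osteoid, the unmineralised matrix of bone, and the bone-forming cell, the osteoblast, is known for RUNX2 and SP7 as its transcription factors and for type I collagen, alkaline phosphatase and osteocalcin as its products. The 143B line was derived from the HOS line, forms metastases in mice, and was selected for loss of thymidine kinase activity. Levels are given as FPKM, fragment counts divided by gene length in kilobases and by library size, which allow genes of different length to be compared within a library. A gene at 1 FPKM or more counts as expressed and a gene under 0.1 FPKM as at trace level. These are conventions and not limits of detection.

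The library totals, in units of 1e6 counts, were 38.86, 38.41 and 39.41 in replicates 1, 2 and 3. A count of 0 at this depth allows up to 3 counts, or 0.0761 to 0.0781 CPM (counts scaled to a library of 1e6), by counting error only. Mitochondrially encoded genes took 5.67% ± 0.165 of the counts and genes of ribosomal proteins took 8.81% ± 0.323. The table lists 22481 genes, and every one of them has a count in at least 1 of the 6 libraries of the series. A gene that no library of the series detected is therefore outside what could be described.

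Of these genes, 11611 (51.65%) were expressed, 4989 reached 10 FPKM, 492 reached 100 FPKM and 58 reached 1000 FPKM. Protein-coding genes were expressed in 67.88% of cases and non-coding genes in 10.57%. The median level was 1.23 FPKM over all listed genes and 3.91 FPKM over the 16114 protein-coding genes, which is the background for every gene list below. The number of expressed genes was 11688, 11643 and 11565 in the 3 wells. Of these, 11278 genes were at 1 FPKM or more in every well.

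**Figure D1:**
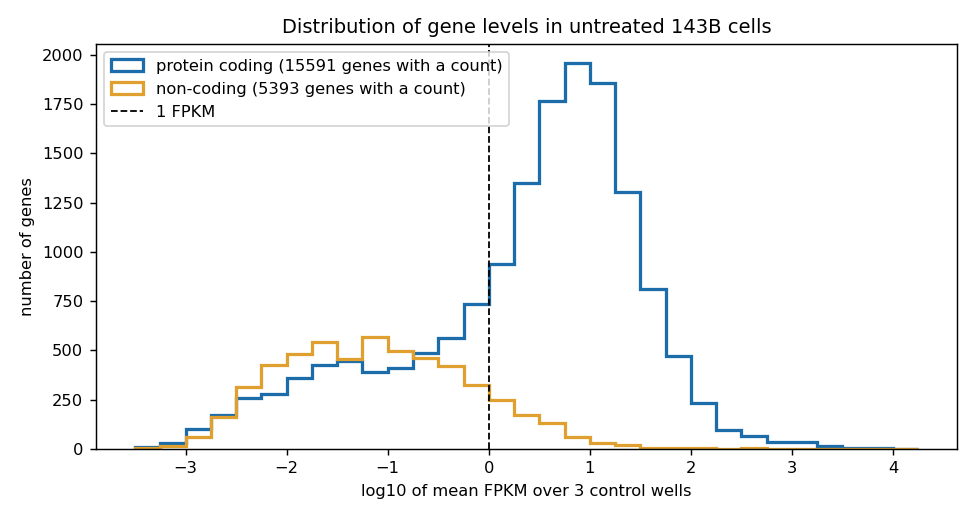
Number of genes (vertical axis) by log10 of the mean FPKM over the 3 control wells (horizontal axis, steps of 0.25), for protein-coding genes (blue) and non-coding genes (orange) with a count in at least 1 control well. The dashed line marks 1 FPKM. Protein-coding genes form a broad peak on the right of the line and non-coding genes lie mostly on its left, where 10.57% of all listed non-coding genes and 67.88% of protein-coding genes reach 1 FPKM.

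The transcriptome was top-heavy. The 100 most abundant genes held 42.8% ± 0.184 of the summed FPKM, and the 58 genes at 1000 FPKM or more held 35.19%. Those 58 genes had a median length of 924.5 bases, against 3466 bases over all genes with a count. Of the 30 most abundant genes, 10 are mitochondrially encoded and 14 encode ribosomal proteins. The mitochondrial subunits of cytochrome c oxidase led: COX3 stood at 10260, 9941 and 9430 FPKM and COX2 at 9260, 8992 and 8350 FPKM. COX3 was the most abundant gene in every well. COX2 (8867 FPKM), the ATP synthase subunit ATP6 (8490) and the complex I subunit ND4 (8294) followed on average, and their ranks changed between wells.

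The most abundant nuclear gene was EEF1A1, the elongation factor that brings aminoacyl-tRNA to the ribosome, with 4390, 4529 and 4905 FPKM. The ribosomal protein genes RPS18 (3453 ± 175 FPKM), RPS2 (3230 ± 242), RPL13A (2577 ± 152) and RPLP0 (2566 ± 156) and the glycolytic enzyme gene GAPDH (2674 ± 253) came next. TMSB10, which encodes an actin-binding thymosin, stood at 2170 ± 33.1 FPKM, ACTB, the cytoplasmic actin, at 2136 ± 29.2 and HSPA8, the constitutive HSP70 chaperone, at 1708 ± 95.1 FPKM. Only 10 of the 29 neighbouring pairs among the 30 genes kept their order in every well, so most of the ranking is not resolved beyond the spread. Its membership was steadier, since 27 of the 30 genes were among the top 30 of every well.

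MMP1, which encodes interstitial collagenase, an enzyme that cleaves fibrillar collagens, was the only gene among the 30 outside the housekeeping classes listed. It lies at chr11:102789919-102798160 of GRCh38.p14 and stood at 2417, 1991 and 2040 FPKM, the 18th rank on average, between the 16th and the 21st in single wells. Replicate 1 was the highest. Its levels overlapped those of TMSB10 and ACTB, so the order among these 3 genes is not resolved.

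**Figure D2:**
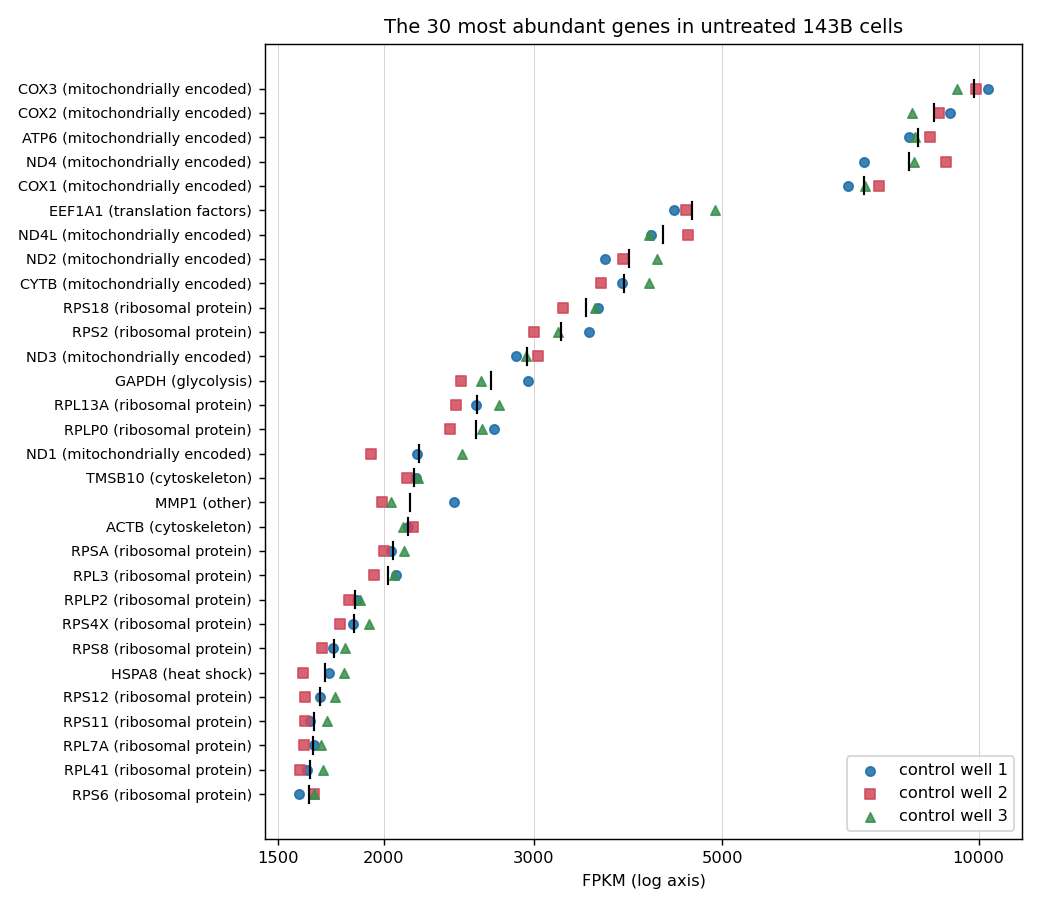
FPKM on a log axis (horizontal) of the 30 genes with the highest mean over the 3 control wells, each labelled with its class. Circles, squares and triangles are control wells 1, 2 and 3 and the vertical bar is the mean. The 5 mitochondrial genes at the top stand apart from the rest, and MMP1, with 2417, 1991 and 2040 FPKM, is the only gene of the class "other".

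Of the 100 most abundant genes 52 encode ribosomal proteins, 12 are mitochondrially encoded, 9 are of the cytoskeleton list and 16 are of none of the classes. VIM, the intermediate filament vimentin of mesenchymal cells, held rank 35 with 1634, 1502 and 1540 FPKM. The calcium-binding S100A6 stood at 1210 ± 76.0 FPKM, ENO1, the glycolytic enolase, at 1239 ± 97.5 and the chromatin architectural protein gene HMGA1 at 1166 ± 47.2 FPKM. MT2A, a metallothionein that binds zinc and copper, reached 1093 ± 56.8 FPKM, LGALS1, galectin 1, 954 ± 15.2 and KRT18, a simple epithelial keratin, 633 ± 9.64 FPKM. MT2A, S100A6 and ENO1 had a CV (the SD as a percent of the mean) of 5.2%, 6.29% and 7.87%.

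Promoter sequences were compared with these levels, since highly and weakly transcribed genes are known to differ in promoter type. RefSeq promoters on GRCh38.p14 (250 bases before the start of transcription) were matched by gene ID for 12990 of the 16114 protein-coding genes. A gene can have more than 1 promoter, and promoters are the unit counted below. Shown here are the 100 bases before the start for 5 abundant genes and, for contrast, for BGLAP, the osteocalcin gene, which was at trace level. Each runs 5′ to 3′ on the strand of the gene and ends at the base before the start. Capitals mark the letters TATAAA of the TATA box, read on the strand of the gene. They also mark the CCAAT box (reverse complement ATTGG) and the GC box core GGGCGG (reverse complement CCGCCC). Where 2 matches of the same letters overlap, as in TMSB10 and CCN2, only the first is in capitals.
TMSB10 (chr2:84905556-84905655, plus strand): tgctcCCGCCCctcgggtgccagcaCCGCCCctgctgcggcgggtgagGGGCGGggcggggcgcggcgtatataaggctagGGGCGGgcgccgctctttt
RPLP0 (chr12:120201112-120201211, minus strand): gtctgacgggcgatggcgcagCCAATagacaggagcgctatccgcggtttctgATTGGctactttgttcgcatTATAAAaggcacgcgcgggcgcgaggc
MT2A (chr16:56608484-56608583, plus strand): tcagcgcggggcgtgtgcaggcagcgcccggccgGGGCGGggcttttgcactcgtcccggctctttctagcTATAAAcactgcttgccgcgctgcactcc
VIM (chr10:17228141-17228240, plus strand): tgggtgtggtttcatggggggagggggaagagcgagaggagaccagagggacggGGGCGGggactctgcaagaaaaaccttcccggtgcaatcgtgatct
CCN2 (chr6:131951373-131951472, minus strand): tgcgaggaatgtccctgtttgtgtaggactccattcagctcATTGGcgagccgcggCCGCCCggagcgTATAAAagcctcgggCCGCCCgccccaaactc
BGLAP (chr1:156242084-156242183, plus strand): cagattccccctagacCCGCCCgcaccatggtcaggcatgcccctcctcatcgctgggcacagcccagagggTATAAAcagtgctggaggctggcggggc

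The letters TATAAA began 27 bases before the start in RPLP0, 29 in MT2A, 32 in CCN2 and 28 in BGLAP, and were not found in the printed bases of TMSB10 and VIM. Only these exact letters were searched, also for the shares below, so a variant such as tatataag in TMSB10 was not counted. The 250 bases upstream held 31 CpG dinucleotides in TMSB10 and 32 in MT2A, but 8 in VIM and 8 in BGLAP. A match is only a match of letters, and abundant and trace genes both had one.

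Over all matched promoters, the level went with the CpG content. The median number of CpG in the 250 bases was 6 for genes under 0.1 FPKM, 15 from 0.1 to 1 FPKM, 20 from 1 to 10 FPKM and 21 from 10 to 100 FPKM. It stayed at 21 from 100 to 1000 FPKM and was 20 at 1000 FPKM or more. GGGCGG, the core of the GC box, on either strand was present in 35.1% of the promoters of genes under 0.1 FPKM and in 63.7% of those from 1 to 10 FPKM. The share with TATAAA on the gene's strand starting 45 to 16 bases before the start was 5.07% under 0.1 FPKM, 1.28% from 1 to 10 FPKM and 3.52% from 100 to 1000 FPKM. At 1000 FPKM or more it was 8.11%, but of only 37 promoters, and it was 2.21% over the promoters of all matched protein-coding genes. The TATAAA share was therefore lowest in the middle of the range and higher at both ends.

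The lineage markers described a mesenchymal cell with little of the mature osteoblast programme. Of the 17 osteoblast genes analysed, 10 were expressed, with a median of 1.38 FPKM against 3.91 FPKM over all protein-coding genes. RUNX2, the master transcription factor of the lineage (chr6:45328330-45551082), stood at 5.16, 6.05 and 5.92 FPKM. SP7, the osterix gene that acts after RUNX2 (chr12:53326575-53344793), had 0, 6 and 4 counts, a mean of 0.0246 FPKM. The RUNX2 levels of the 3 wells were all well above those of SP7.

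Of other patterning factors on the osteoblast list, DLX5 stood at 4.76 ± 0.605 and MSX2 at 4.41 ± 0.931 FPKM, while DLX3 was below 1 FPKM (0.462 ± 0.148). BMP2, a bone-inducing ligand, stood at 8.10 ± 1.06 FPKM. Among the matrix products, SPARC (osteonectin, a collagen-binding glycoprotein) was the highest with 87.2, 107 and 117 FPKM, lowest in replicate 1. SPP1 (osteopontin) stood at 25.1, 20.2 and 16.7 FPKM, highest in replicate 1.

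The products that define mineralising bone were low. COL1A1, the alpha 1 chain of type I collagen (chr17:50184101-50201631), stood at 1.69, 1.26 and 1.18 FPKM. COL1A2, the partner chain (chr7:94394895-94431227), had 0 counts in every well. ALPL, tissue-nonspecific alkaline phosphatase, stood at 1.24, 1.15 and 0.871 FPKM. BGLAP had 1, 1 and 0 counts, but it shares sequence with the read-through gene PMF1-BGLAP, and the sources do not state how such reads were assigned. PHEX, an endopeptidase of bone mineralisation, had 13 counts in each well (0.0476 FPKM) and PTH1R, the parathyroid hormone receptor, 0.268 ± 0.119 FPKM. Of this list RUNX2, SPARC and SPP1 were thus expressed, while SP7, COL1A2 and BGLAP were at or near 0. Whether these levels identify the line as an osteosarcoma was not tested. IBSP, DMP1, MEPE, SOST, TNFSF11, IFITM5 and OMD were not analysed here.

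Markers of a mesenchymal cell surface were mostly expressed. Of 8 analysed, 7 were expressed, with a median of 17.8 FPKM. THY1 and VCAM1, also on this list of 10, were not analysed here. ITGB1, the beta 1 integrin chain, stood at 182, 183 and 173 FPKM, CD44, the hyaluronan receptor, at 90.4, 89.9 and 95.3 FPKM, and NT5E, the CD73 ecto-nucleotidase, at 27.1, 24.4 and 23.3 FPKM. These 3 genes did not overlap in level in any well. ALCAM stood at 19.9 ± 0.268, ENG (endoglin) at 15.7 ± 1.63 and PDPN (podoplanin) at 11 ± 1.02 FPKM.

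Of the 16 genes analysed of the fibroblast and mesenchymal state list, 13 were expressed, with a median of 11.2 FPKM. VIM led it, followed by CDH2 (N-cadherin, 31.7 ± 1.75 FPKM), the transcription factor TWIST2 (27.8 ± 2.85), PDGFRA (24.4 ± 1.43), FN1 (fibronectin, 20.6 ± 4.04) and SNAI2 (18 ± 1.02). TWIST1, CDH11, PRRX1 and ZEB1 stood at 11.9, 11.3, 11.1 and 8.17 FPKM. The other 3 genes analysed were at 0 or trace level, and POSTN was not analysed here. DCN (decorin, chr12:91140484-91182817) had 0 counts, LUM (lumican) had 0, 1 and 0, and FAP, the fibroblast activation protein, had 0, 1 and 2.

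Other lineages were expressed in part. SOX9, the chondrogenic transcription factor, stood at 54.6, 52.1 and 43.8 FPKM, yet it was the only expressed gene of the 10 chondrocyte genes analysed: COL2A1 stood at 0.149 ± 0.0374 and ACAN (aggrecan) at 0.189 ± 0.0101 FPKM, and COL11A1, PRG4 and HAPLN1 had 0 counts. COL9A3, a chain of the cartilage collagen IX that is not on the list, stood at 30.8, 30.5 and 27.9 FPKM. Of the 7 adipocyte genes 4 were expressed, a median of 2.75 FPKM: PPARG (9.10 ± 0.423 FPKM), LPL (5.81 ± 0.876), FABP4 (5.04 ± 0.269) and CEBPA (2.75 ± 0.475), while ADIPOQ had 0 counts and PLIN1 2, 1 and 1. Of 9 smooth muscle and pericyte genes 4 were expressed, with CSPG4 (NG2) at 10.4 ± 1.21, MCAM at 7.94 ± 1.11, ACTA2 at 6.88 ± 0.751 and MYL9 at 5.40 ± 0.338 FPKM. Of 5 skeletal muscle genes analysed only MYH3 was expressed (1.10 ± 0.0847 FPKM). The other 6 of the 11 on that list, MYOD1 and MYOG among them, were not analysed here.

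Of 14 epithelial genes analysed 4 were expressed. KRT18 (644, 629 and 626 FPKM) and its partner keratin KRT8 (179, 182 and 178 FPKM) were among the least variable genes named, with a CV of 1.52% and 1.05%. The epithelial adhesion genes stood far below them. CDH1 (E-cadherin) had 0, 0 and 1 counts, while EPCAM (3.85 ± 0.271 FPKM) and CLDN3 (1.39 ± 0.193) were expressed at a low level. Both keratins have many processed pseudogenes, and the sources do not state how shared reads were assigned.

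CD68, a lysosomal glycoprotein used as a macrophage marker, stood at 112, 112 and 118 FPKM, but PTPRC, the pan-leukocyte CD45 gene, had 0, 1 and 0 counts. TIE1, an endothelial receptor kinase, stood at 17.7, 16 and 15.5 FPKM, but PECAM1 stood at 0.0326 FPKM and CDH5 had 1, 0 and 0 counts. TUBB3, a tubulin used as a neuronal marker, stood at 77.5, 71.5 and 65.4 FPKM. The other expressed genes of its list were OLIG2 (6.45 FPKM), SYP (1.85), SOX2 (1.27) and MITF (1.27), while GFAP and SOX10 had 0 counts. Leukocyte genes were expressed in 2 of 9 cases, endothelial genes in 3 of 10, neural and melanocyte genes in 5 of 12 and osteoclast genes in 3 of 6. These shares are of the genes analysed, and 7 of the 16 leukocyte genes listed were not analysed here. Bulk RNA of 1 cell line gives a mean over its cells, so a marker expressed in few cells or weakly in all cannot be told apart.

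**Figure D3:**
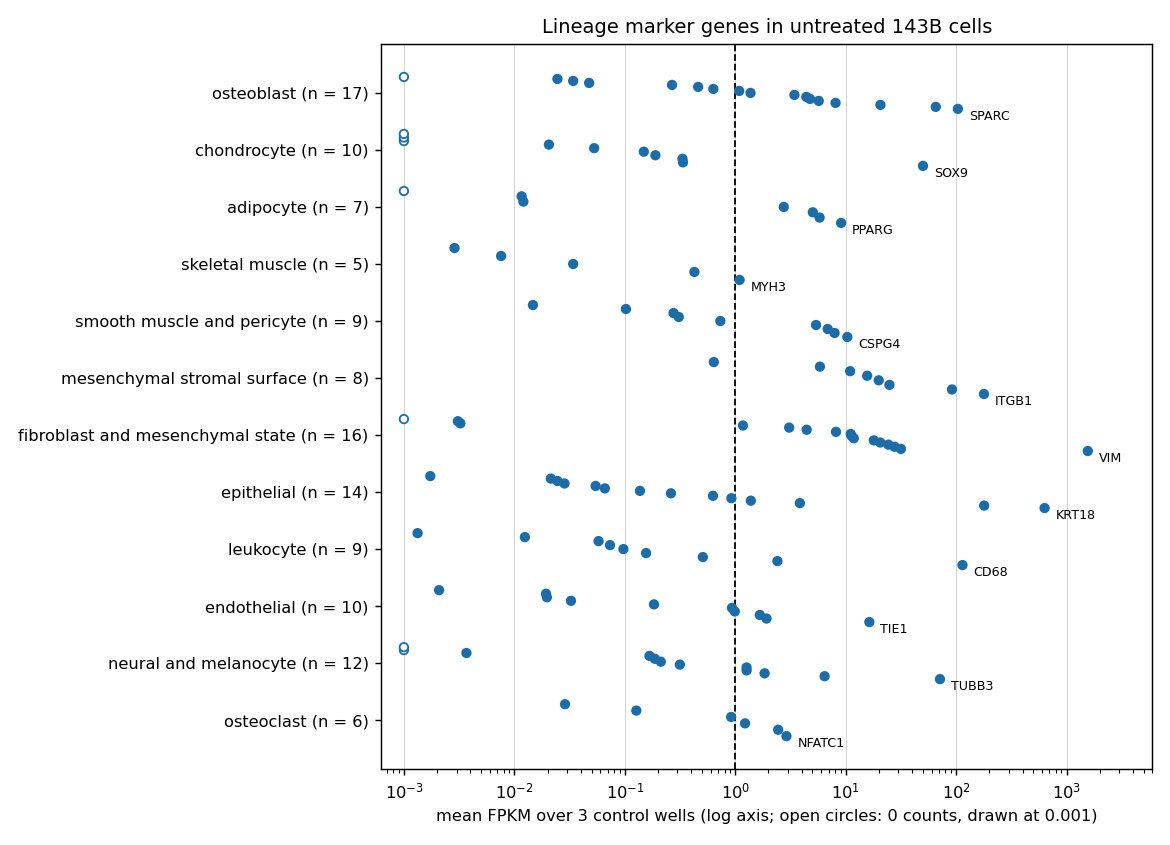
Mean FPKM over the 3 control wells (horizontal, log axis) of the marker genes of 12 lineages (rows), 1 point per gene, with the highest gene of each row named. n is the number of genes analysed, open circles are genes with 0 counts in all 3 wells, drawn at 0.001, and the dashed line marks 1 FPKM. The mesenchymal rows lie mostly right of the line, while the chondrocyte and leukocyte rows have SOX9 and CD68 far to the right of their other genes.

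Of 945 genes annotated as transcription factors, 628 (66.46%) were expressed, near the 67.88% of all protein-coding genes. Their median was 2.51 FPKM, and 3 reached 100 FPKM: FOSL1, PCBP1 and TBX15. FOSL1, the FRA-1 subunit of the dimeric factor AP-1, stood at 387, 460 and 445 FPKM, above every other gene of the class in every well. PCBP1, an RNA- and DNA-binding protein, followed with 204 ± 0.919 FPKM. TBX15, a T-box factor of limb and skeletal development (chr1:118883047-118989510), stood at 118, 118 and 99.3 FPKM.

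The next of this class were EGR1 (72.0, 128 and 83.5 FPKM), JUN (112, 80.5 and 76.1), BHLHE40 (87.1 ± 12.2), HIF1A (77.0 ± 14), MYBL2 (76.6 ± 13), FOXR1 (74.7 ± 5.21) and SLC2A4RG (67.1 ± 7.86 FPKM). EGR1 exceeded TBX15 in replicate 2, and the wells of JUN overlapped those of TBX15, so the order from TBX15 down is not resolved. EGR1 and JUN, both immediate early genes, varied in different ways, since EGR1 was highest in replicate 2 and JUN in replicate 1.

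All 16 AP-1, ATF and CEBP genes analysed were expressed. After FOSL1 and JUN came ATF4 (65.5 ± 3.71 FPKM), CEBPB (59.9 ± 5.16), JUNB (55.3 ± 12.7) and MAFF (39.7 ± 8.45), while FOS, the classical partner of JUN, stood at 10.2 ± 1.25 FPKM. All 8 genes of YAP and TEAD, the effectors of the Hippo pathway, were expressed, with WWTR1 (TAZ) at 47.1 ± 8.28, TEAD4 at 43.1 ± 0.328 and YAP1 at 26.4 ± 1.68 FPKM. CCN1 and CCN2, known targets of YAP, stood at 484 and 320 FPKM.

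In the MYC network, MAX, the dimer partner, was the highest at 22.3 ± 1.89 FPKM. MYC itself stood at 6.63, 7.03 and 8.55 FPKM, MYCL at 1.81 ± 0.342 and MYCN at 0.348 ± 0.0941 FPKM. The MYC wells overlapped those of MXD1 (7.79 ± 1.12 FPKM), which encodes an antagonist. Of the NF-kB, STAT and IRF genes, 14 of 15 were expressed, among them NFKB2 (32.2 ± 5.5 FPKM), RELA (28.2 ± 0.200), IRF3 (26.9 ± 3.16), STAT3 (21.3 ± 1.63) and STAT6 (17.5 ± 3.98). STAT5A, at 0.247 FPKM, was the only one of the list below 1 FPKM.

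All 35 analysed genes of the SOX, FOX, GATA, KLF and ETS list, which here also holds the ID genes and EGR1, were expressed. The inhibitors of differentiation ID3 (107 ± 8.54 FPKM) and ID1 (72.7 ± 2.43) were high and ID2 low (2.15 ± 0.613). ETS1 (46.4 ± 1.29), ETV4 (44.5 ± 3.03), the mitotic factor FOXM1 (38.9 ± 0.715) and ETV5 (35.8 ± 1.56) followed. Of the nuclear receptors 17 of 20 were expressed, with NR2F6 at 26.3 ± 0.704, RXRB at 23.3 ± 0.697, ESRRA at 19.9 ± 0.651, NR1D1 at 18.1 ± 4.94, PPARD at 14.5 ± 0.566 and VDR, the vitamin D receptor, at 8.06 ± 1.07 FPKM.

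The HOX genes, which give cells their position along the body axis and within the limb, were expressed almost throughout the 4 clusters. Of 38 analysed, 33 were expressed, with a median of 3.72 FPKM. HOXB had the highest sum (104 FPKM over 9 genes), then HOXC (62.2 over 9), HOXA (40.1 over 11) and HOXD (25.4 over 9). HOXB9 was the highest gene, with 29.9, 30.0 and 32.6 FPKM, above HOXC10 (21, 24.6 and 29 FPKM) in every well.

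HOXC10 and HOXB4 (27.1, 22.8 and 21.5 FPKM) overlapped, and below them stood HOXB2 (14.1 ± 2.13), HOXC4 (12 ± 1.70) and HOXB6 (11.7 ± 2.68). At the posterior end HOXC13 stood at 6.5 ± 0.625, HOXD13 at 2.54 ± 0.209 and HOXB13 at 2.50 ± 0.485 FPKM. HOXA13, HOXA6, HOXD12 and HOXD3 stood between 0.139 and 0.738 FPKM and HOXC12 had 0 counts. Neighbouring HOX genes share exons and have antisense transcripts, so the levels of HOXC4, HOXC5, HOXC6, HOXA7, HOXA9 and HOXA10 are uncertain.

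**Figure D4:**
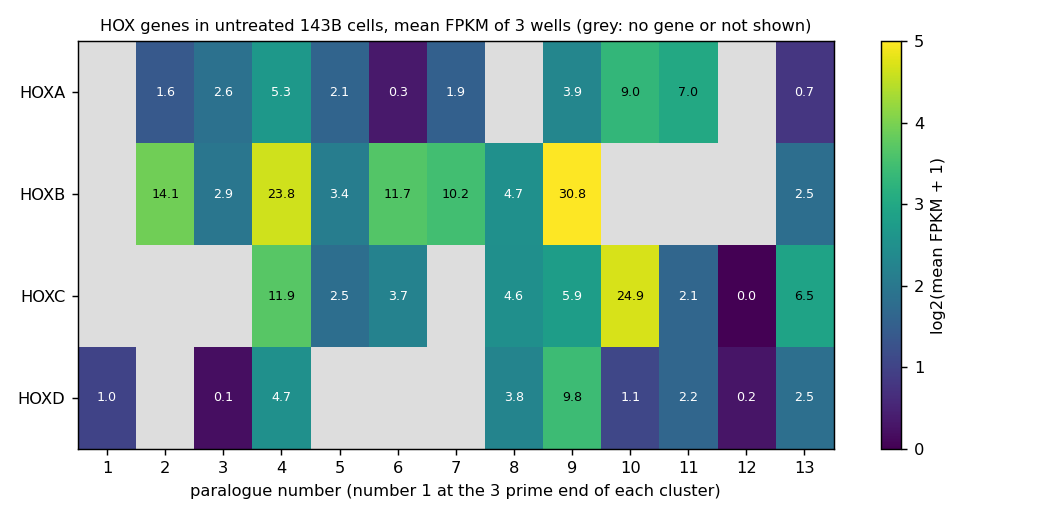
Mean FPKM over the 3 control wells of HOX genes, by cluster (rows) and paralogue number (columns), with colour by log2(mean FPKM + 1) and the mean written in each cell. Grey cells have no gene or are not shown. HOXB9 (30.8), HOXC10 (24.9) and HOXB4 (23.8) are the brightest cells, and low cells such as HOXC12 and HOXD3 lie beside expressed neighbours.

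Other limb and skeletal patterning factors were expressed in 17 of 23 cases. After TBX15 came MSX1 (30.0 ± 2.70 FPKM), PBX3 (12.5 ± 1.38), the hindlimb factor PITX1 (11 ± 0.310), TBX3 (5.35 ± 0.639) and GLI3 (4.49 ± 0.223). TBX4, the hindlimb T-box gene that acts with PITX1, was at 0.0802 FPKM. Of the Hedgehog effectors GLI2 stood at 3.46 ± 0.492 FPKM, while GLI1, their transcriptional target, stood at 0.177 ± 0.0284 FPKM.

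Of 442 genes annotated as receptors, 170 (38.46%) were expressed, beside 67.88% of all protein-coding genes, and the difference was not tested. The annotation also holds intracellular proteins such as RRBP1. The 10 highest were SLC20A1 (a phosphate carrier and virus receptor, 233 ± 20.9 FPKM), SLC1A5 (136 ± 12.3), ANPEP (121 ± 4.60), TMEM123 (110 ± 3.19), AXL (110 ± 5.89), PRNP (110 ± 10.6), PROCR (98.7 ± 3.90), CD44, TNFRSF10B (71.6 ± 5.07) and PLAUR (60.4 ± 4.63). Several are transporters or peptidases that the annotation counts as receptors.

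Receptor tyrosine kinases are a class that senses growth factors. Of the 44 genes on their list, which also holds IGF2R, a receptor that is not a kinase, 28 were expressed. AXL, the receptor of GAS6, stood far above the rest with 110, 104 and 116 FPKM. EPHA2 followed with 47.9, 49.5 and 52.5 FPKM, then PTK7 with 40.8, 39.7 and 36.8 FPKM and EGFR with 33.6, 31.8 and 31 FPKM. The wells of these 4 genes did not overlap, so their order was the same in every well. PDGFRA (24.4 ± 1.43 FPKM) and RYK (24.3 ± 0.647) could not be ordered, nor could MET (19.7 ± 0.580) and IGF1R (19.3 ± 0.0807), which were below both.

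FGFR1 stood at 18.3 ± 0.157 FPKM and ERBB2 at 5.60 ± 0.467 FPKM. PDGFRB, the second PDGF receptor, stood at 0.211, 0.413 and 0.301 FPKM, far below PDGFRA in every well. ERBB3 stood at 0.178 FPKM, KDR, the main VEGF receptor, at 0.184 ± 0.0515, ALK at 0.409 ± 0.0673 and RET at trace level with 13, 29 and 15 counts.

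Of 35 cytokine and death receptors 29 were expressed. TNFRSF12A, the receptor of TWEAK, led with 131, 127 and 133 FPKM, followed by TNFRSF1A (74.0 ± 5.93 FPKM), the TRAIL receptor TNFRSF10B, LTBR (40.5 ± 4.36), IFNGR2 (40.3 ± 3.13) and TGFBR2 (32.0 ± 4.03). FAS, the classical death receptor, was below 1 FPKM (0.707 ± 0.0643). IL1R1, the receptor of IL1B, stood at 0.420 ± 0.0551 FPKM.

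Of 37 G protein-coupled and related receptors analysed 24 were expressed. The WNT co-receptor LRP5 (43.8 ± 1.35 FPKM) and the protease-activated receptors F2RL1 (41.3 ± 4.89) and F2R (21.9 ± 2.35) led. LPAR3, a receptor of lysophosphatidic acid, stood at 18.7 ± 1.77 FPKM and the frizzled receptors FZD7 and FZD6 at 15.1 ± 0.661 and 14 ± 0.948 FPKM. CXCR4, a chemokine receptor studied in metastasis, stood at 5.80, 5.52 and 5.96 FPKM, while CXCR1 and CXCR2 had 1 count each over the 3 wells.

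Of 24 integrin genes 16 were expressed. Besides ITGB1 the highest were the alpha chains ITGA3 (97.2 ± 6.99 FPKM), ITGA5 (74.4 ± 9.04), ITGA6 (47.6 ± 4.21) and ITGA2 (41.0 ± 6.52) and the beta chain ITGB5 (70.5 ± 2.82). The leukocyte integrin ITGAL and the alpha chain ITGA8 had 0 counts.

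Among the secreted genes, 25 of 35 proteases and inhibitors and 33 of 47 growth factors were expressed, shares near the 67.88% of all protein-coding genes. MMP1 was the highest of them in every well. MMP14, the membrane-anchored collagenase, stood at 145, 152 and 125 FPKM, CTSD and CTSB, lysosomal proteases, at 127 ± 4.53 and 122 ± 7.70 FPKM, and PLAU, the urokinase, at 89.7 ± 7.44 FPKM.

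The gelatinases were lower, MMP2 with 18.2 ± 2.1 FPKM and MMP9 with 0.919 ± 0.294 FPKM. The high MMP1 level was not shared by the other collagenase and stromelysin genes beside it on chromosome 11. MMP3, MMP13 and MMP10 stood at 0.342, 0.306 and 0.122 FPKM, MMP7 and MMP12 at trace level (0.0304 and 0.00935 FPKM), and MMP8 had 0 counts. TIMP1, an inhibitor of these enzymes, stood at 69.6 ± 2.23 FPKM.

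Of the growth factors, CCN1 (359, 548 and 545 FPKM) and CCN2 (251, 346 and 362 FPKM), matricellular factors, led in every well, both lowest in replicate 1. ESM1 (endocan) followed at 153 ± 20.3, TGFB1 at 76.6 ± 1.44, VEGFA at 69.5 ± 8.33 and MDK (midkine) at 58.2 ± 2.28 FPKM. BMP7 and IGF2 stood at 30.9 ± 1.98 and 30.0 ± 2.51 FPKM. IGF2 shares sequence with the read-through gene INS-IGF2. HGF, the ligand of MET, and IGF1, which like IGF2 is a ligand of IGF1R, had 0 counts in every well.

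Cytokines and chemokines were expressed in 11 of 25 cases. MIF, the macrophage migration inhibitory factor, stood at 532, 411 and 409 FPKM, highest in replicate 1, and its exons overlap an antisense gene. IL1B stood at 22.8, 49.6 and 45.6 FPKM, with replicate 1 the lowest. IL11, a bone-active cytokine, stood at 27.8, 34.1 and 27.9 FPKM. IL1A (9.18 ± 1.9 FPKM), CSF1 (7.16 ± 1.46) and TNFSF9 (5.81 ± 1.67) were lower. CXCL8 (interleukin 8) stood at 2.2 ± 1.15 FPKM, and IL6, a cytokine that the same family of receptors serves as IL11, had 11, 4 and 8 counts (0.0643 FPKM).

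Among the WNT ligands and antagonists 10 of 23 were expressed, and antagonists were the highest: SFRP1 at 48.2 ± 2.28 FPKM and DKK3 at 20.02 ± 0.637. The ligands WNT7B and WNT5B stood at 19.3 ± 0.170 and 9.20 ± 0.296 FPKM. DKK1, an inhibitor of bone formation, stood at 14.9, 8.40 and 10.1 FPKM, highest in replicate 1.

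Of 23 collagen genes 15 were expressed. Type VI and type IV chains led: COL6A2 at 63.5 ± 6.49, COL4A2 at 59.5 ± 3.19, COL6A3 at 55.4 ± 4.22 and COL6A1 at 40.8 ± 3.60 FPKM. COL13A1 followed at 35.2 ± 1.71 and COL5A2 at 16.1 ± 1.45 FPKM within the list, which does not hold COL9A3 (29.7 ± 1.63). Of the fibrillar genes COL5A2 was the highest, COL5A1 stood at 4.93 ± 0.731 and COL1A1 at 1.38 ± 0.271 FPKM, and COL1A2, COL3A1 and COL11A1 had 0 counts. All COL6A and COL4A2 wells were above every well of COL1A1.

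Of 39 matrix glycoprotein genes 35 were expressed, with a median of 11.6 FPKM. TGFBI (156 ± 7.06 FPKM) and SPARC were the highest, followed by the laminin chain LAMB1 (94.1 ± 3.65), the collagen cross-linker LOXL2 (66.0 ± 1.85), the syndecan SDC4 (64.9 ± 2.28) and LAMB3 (58.8 ± 7.82). In the annotation of extracellular products, which also counts intracellular proteins found outside cells, EEF1A1, MMP1, ACTB, HSPA8, EEF2 (1480 ± 94.0 FPKM), ACTG1 (1358 ± 29.4), RPL39 (1299 ± 97.2), ENO1, S100A6 and PKM (982 ± 63.7) were the 10 highest.

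The tumour gene lists were described in the same way. CDKN1A, the p21 inhibitor of cyclin-dependent kinases, stood at 60.5, 63.6 and 54.4 FPKM. MDM2, a ubiquitin ligase often amplified in sarcomas, stood at 2.79 ± 0.219 FPKM. In the RB pathway, which is often altered in osteosarcoma, RB1 (chr13:48303751-48481890) stood at 6.01, 5.84 and 5.30 FPKM. CCND1, the cyclin that acts on RB through CDK4, stood at 219, 223 and 230 FPKM and CDK4 at 101, 85.7 and 83.3 FPKM. Part of the exons of CDK4 and of CCND1 overlap genes on the opposite strand, TSPAN31 (5.28 FPKM) and LTO1 (9.88 FPKM).

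Of 34 tumour suppressor genes analysed 32 were expressed, with a median of 6.43 FPKM. Below CDKN1A stood DAXX (33.9 ± 0.777 FPKM), RBL2 (20.5 ± 1.40), STK11 (16.9 ± 0.454) and CDKN1B (15.2 ± 0.464). ATRX, a chromatin remodeller linked to telomere maintenance, stood at 6.63 ± 0.741 FPKM. CDKN2A, CDKN2B and MTAP of chromosome 9p21 were not analysed here. Of 11 neighbours analysed, 8 were expressed, among them FOCAD (16.8 ± 1.22 FPKM, chr9:20655625-20995950) and KLHL9 (12.1 ± 0.416, chr9:21329665-21335404) on one side and DMRTA1 (1.94 ± 0.181, chr9:22446824-22455740) on the other. IFNE had 8, 0 and 0 counts and ELAVL2 0, 1 and 1.

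Of 41 oncogenes and growth drivers 40 were expressed. The anti-apoptotic MCL1 (395 ± 34.9 FPKM) and CCND1 were the highest, then CDK4, the mitotic kinase AURKB (82.3 ± 2.87), AKT1 (78.5 ± 3.26) and PLK1 (75.2 ± 5.05). HRAS stood at 39.1 ± 5.19 FPKM, above NRAS (28.8 ± 2.03) in every well. MYCN, at 0.348 FPKM, was the only one of the 41 below 1 FPKM. All 21 genes of the proliferation list were above 10 FPKM, with UBE2C at 180 ± 8.00, CDC20 at 154 ± 10.8, PCNA at 106 ± 13.3 and MKI67 at 45.1 ± 2.2 FPKM.

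TERT, the catalytic subunit of telomerase, lay at the expression threshold, with a mean of 1.01 ± 0.0735 FPKM. Other telomerase genes were abundant, NOP10 at 229 ± 5.74, NHP2 at 193 ± 5.14 and DKC1 at 58.0 ± 3.58 FPKM, and these also serve ribosomal RNA. Among the nucleotide genes TYMS, thymidylate synthase, stood at 161, 152 and 140 FPKM. TK1, the cytosolic thymidine kinase whose activity the line was selected to lack (chr17:78174079-78187204), stood at 18.2, 13.8 and 15.8 FPKM. RNA was thus present at a level above 10 FPKM in every well, and enzyme activity was not measured.

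Of 21 surface antigens used as therapy targets 17 were expressed, with EPHA2, PTK7 and EGFR the highest. CD276 (B7-H3) stood at 24.5, 26.7 and 28.7 FPKM and CD274 (PD-L1) at 8.80, 12.5 and 12.2 FPKM. B4GALNT1, the synthase of the gangliosides GM2 and GD2, stood at 4.36 ± 0.390 FPKM. PRAME (chr22:22547701-22559265), at 70.1, 64.6 and 65.1 FPKM, was the only expressed one of 5 cancer testis antigens analysed, and CTAG1B had 0 counts. The list holds 23 such genes, of which 18 were not analysed here.

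The 20 metastasis genes of osteosarcoma had a median of 61.4 FPKM, and 18 were expressed. S100A6, MSN (moesin, 525 ± 19.5 FPKM), ANXA2 (423 ± 4.49), MMP14, ANXA1 (114 ± 3.58) and CD44 were the 6 highest, and EZR (ezrin, the best-known of them) stood at 60.9, 69.4 and 70.9 FPKM. S100A4 stood at 1.18 ± 0.220 FPKM. Of 18 drug transport and resistance genes 15 were expressed, led by GSTP1 (424 ± 21 FPKM), TOP1 (81.0 ± 3.94), TOP2A (73.9 ± 5.84), ALDH1A3 (52.5 ± 4.73), GGH (36.1 ± 2.27) and ERCC1 (19.96 ± 1.75). The efflux pump ABCB1 stood at 1.53 ± 0.149 FPKM.

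In all 1497 listed genes had 0 counts in the 3 control wells, 523 of them protein coding and 974 non-coding. They are listed because a library outside the control group has at least 1 count. Their number is thus a property of the table as well as of the cells. A further 5486 genes had a count and stayed under 0.1 FPKM. Lineage-defining genes at 0 were COL1A2, DCN, COL11A1, PRG4, HAPLN1, ADIPOQ, SOX10 and GFAP.

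Over the 4989 genes at 10 FPKM or more the median CV was 6.22%. The theoretical CV from counting error alone, computed from each gene's mean count, had a median of 1.76%. A CV over 20% was found in 91 genes (1.82%) and over 50% in 0 genes. Replicate 1 stood apart more often than the others: it was the well farthest from the median one in 49.65% of these genes, against 23.27% for replicate 2 and 27.08% for replicate 3. Over 2 wells the median CV was 3.85% without replicate 1, 6.06% without replicate 2 and 5.74% without replicate 3. Pearson's r of log2(FPKM + 1) across genes was 0.992 between replicates 1 and 2, 0.992 between 1 and 3 and 0.996 between 2 and 3; genes are not independent, and these are descriptions.

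The most variable gene at 10 FPKM or more was HSPA1B, an inducible HSP70 chaperone, with 14.5, 15.6 and 33.0 FPKM and a CV of 49.2%. DDIT3 (CHOP, a factor of the unfolded protein response) stood at 10.4, 11.6 and 22 FPKM, and DNAJB1, the HSP40 partner of HSP70, at 25.7, 31.4 and 52.3 FPKM. All 3 were highest in replicate 3, by over 1.5-fold above both other wells. HSPA6, a stress-inducible chaperone gene named after its values were seen, had 5, 5 and 620 counts.

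Of the 16 heat shock genes of the list 13 were highest in replicate 3, 13 were lowest in replicate 1, and what sets this order between wells was not tested. The same counts were not made over all genes, so whether the list differs from them is not known. Replicate 1 was the farthest well, in either direction, in 49.65% of all genes at 10 FPKM or more, but that is a different measure. HSPA1A stood at 5.56, 6.16 and 18 FPKM and HSPA5, the chaperone of the endoplasmic reticulum, at 162, 232 and 296 FPKM. HSPA1A and HSPA1B are near-identical genes beside each other on chromosome 6, and reads cannot be assigned between them with certainty. Their promoters show the same likeness, since 94.38% of the aligned bases upstream are identical, with TATAAA and ATTGG in capitals in both.
HSPA1A (chr6:31815443-31815542, plus strand): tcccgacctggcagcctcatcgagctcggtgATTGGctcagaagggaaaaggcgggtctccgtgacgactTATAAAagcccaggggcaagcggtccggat
HSPA1B (chr6:31827638-31827737, plus strand): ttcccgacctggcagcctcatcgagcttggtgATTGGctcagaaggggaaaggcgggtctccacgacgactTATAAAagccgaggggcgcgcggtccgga

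The other genes of the 12 with the highest CV were of mixed kind. TSC22D3, a glucocorticoid-induced gene, stood at 7.66, 16.3 and 10.7 FPKM, IL1B at 22.8, 49.6 and 45.6, and TUBB2A, a beta tubulin, at 10.0, 19.0 and 21.4 FPKM. H1-2, a linker histone, stood at 10.8, 15.4 and 22 FPKM. Replicate 1 was the lowest well in all of these.

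Replicate 1 was the highest in ND6, the only mitochondrial protein gene on the light strand (501, 301 and 265 FPKM), in DHRS4 (15.7, 8.45 and 9.25), in ANGPTL4, an inhibitor of lipoprotein lipase (17.4, 11.1 and 9.09), in SNHG25 (34.3, 25.1 and 17.4) and in EIF5, a translation initiation factor (21.4, 11.2 and 15.1 FPKM). The deviation of replicate 1 thus went in both directions. It exceeded both other wells by over 1.5-fold in 9 genes and lay over 1.5-fold below both in 10.

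Among the least variable genes were DCAF8 (22 FPKM, CV 0.0432%), NMT1 (27.6, 0.0591%), LARGE2 (11.9, 0.0714%), UFD1 (22.3, 0.179%) and NME1 (34.4, 0.195%). These CVs are below the median of 1.76% that counting error alone gives. By list, the median CV was 4.92% in ribosomal protein genes, 4.44% in cytoskeleton genes, 4.62% in receptor tyrosine kinases, 14.6% in immediate early genes and 16% in growth factors at 10 FPKM or more.

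**Figure D5:**
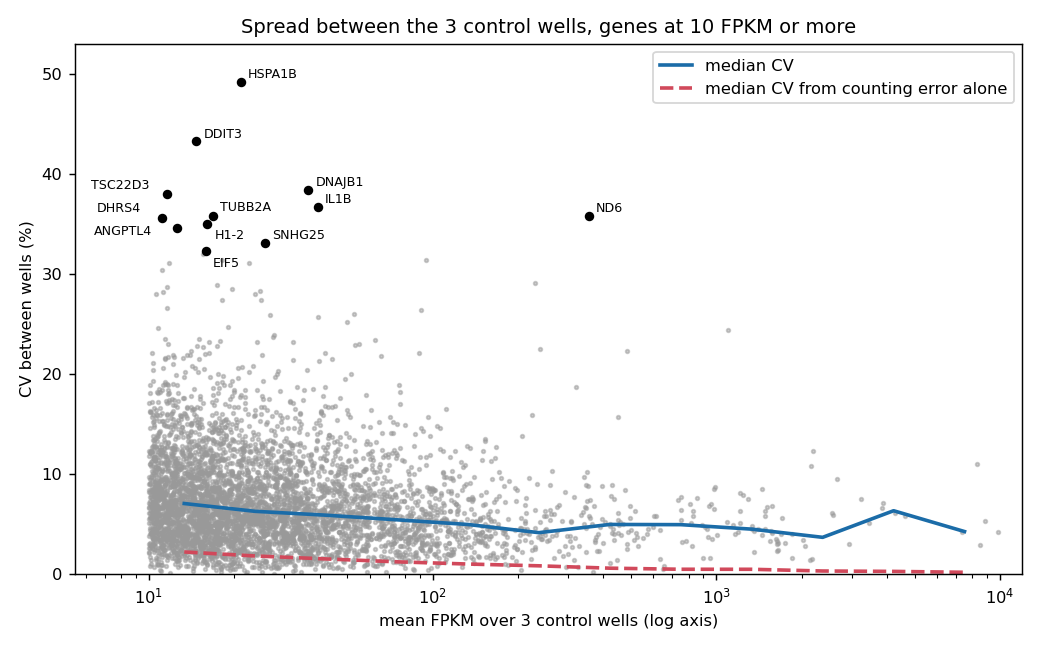
CV between the 3 control wells in percent (vertical) against mean FPKM (horizontal, log axis) for the 4989 genes at 10 FPKM or more. The blue line is the median CV by level and the dashed red line is the median of the theoretical CV from counting error alone. The 12 genes with the highest CV are named in black, from HSPA1B at 49.2% to EIF5 at 32.3%, and the blue line stays above the red line at every level.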

How the data were processed

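Poly(A) RNA libraries of the 3 control wells were analysed. Per the labels' protocols, mRNA was purified from 5 µg of RNA (RIN above 7), with a dUTP step that marks the strand, 8 PCR cycles and reads of 150 bp from both ends. The submitters' processing notes name HISAT2 2.2.1, cutadapt 1.9, edgeR, DESeq2, StringTie 2.1.6 and build hg38. Their roles, the gene models, the rule for counting and the use of strand are not stated there, so overlapping, antisense and near-identical genes are uncertain. The deposited count table holds whole-number counts per gene. FPKM values were deposited beside them, and each gene's counts and FPKM imply the same length in every well.

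The mean, SD and CV over wells were computed from the deposited FPKM values (Python 3.11.15, numpy 2.4.6, pandas 2.3.3) and checked on simulated data. There was no comparison between groups, and no test. TMM factors (edgeR 4.0.16) and DESeq2 1.42.0 size factors served as alternatives. Totals ran from 38.41 to 39.41 in units of 1e6 counts. Coordinates and promoters are RefSeq, GRCh38.p14 (21761 genes matched by gene ID), and exon overlaps of at least 10% are from GENCODE release 29.

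Genes were named by rule: the 30 most abundant, the 6 highest of each list and its defining members at 0 or trace level, the 12 most and 6 least variable at 10 FPKM or more, the 10 highest annotated transcription factors, receptors and extracellular products, and a fixed set of tumour and lineage genes. Other members were added as examples after their values were seen. The members and lists were chosen with earlier results of these data known. Some genes that the rule names are not reported here.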

Additional observations from a re-analysis of the deposited data

How the results depend on the processing

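The number of expressed genes stayed within 1.5 times of 11611 under thresholds of 0.5 and 2 FPKM and under each scaling tried, and fell to 7428 at 5 FPKM; leaving out each well gave 11607 to 11656. The 1497 genes at 0 became 3795 with at most 3 counts in every well, 5387 with fewer than 10 counts in sum, and 2256 to 2330 without 1 well, since fewer libraries detect fewer genes. The share of the 100 most abundant genes (42.8%) was 34.3% without mitochondrially encoded genes and 24.0% in counts, and was 15.5% for 10 genes and 70.7% for 1000 genes; without 1 well it was 42.7% to 42.9%. The median CV (6.22%) was 7.97% at 1 FPKM or more, 4.75% at 100 FPKM or more, and 3.85% to 6.06% without 1 well, the lowest without replicate 1. At 5 FPKM the expressed lineage members fell from 57 to 36 and the transcription factor members from 150 to 98; the receptor, secreted, tumour and class lists stayed within 1.5 times. Of the mean levels of the 304 genes named by rule, 298 moved by more than the SD over wells when rescaled to TPM (a factor of 2.44 to 2.48 for every gene), 112 without mitochondrial genes in the total, and 8 or fewer under TMM or DESeq2 factors. No paired analysis was possible because only 1 group was described and no result comes from a test. Limits: wells of 1 plate, no replicate cultures, and FPKM that depends on the authors' gene models.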

Other observations

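Non-coding RNAs were led by host genes of small nucleolar RNAs, which are spliced transcripts that carry these RNAs in their introns. SNHG29 stood at 487, 516 and 552 FPKM, rank 96 of all genes, GAS5 at 377, 395 and 420 FPKM, SNHG32 at 318, 339 and 360 and ZFAS1 at 158, 172 and 185 FPKM. All 4 were lowest in replicate 1 and highest in replicate 3. Of 6367 listed non-coding genes, 673 reached 1 FPKM.

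The glycolytic pathway was expressed throughout, from GAPDH and ENO1 to PKM (982 ± 63.7 FPKM), LDHA (597 ± 28.2), TPI1 (478 ± 40.4) and PGK1 (229 ± 14.6), with the glucose transporter SLC2A1 at 82.4 ± 7.79 FPKM. ALDOA, the aldolase of the same pathway, named like the ribosomal protein genes below after its value was seen, was listed at 1.79, 1.94 and 2.03 FPKM. Its gene is overlapped in RefSeq by LOC112694756 (0.361 FPKM). RPS10 (2.67 ± 0.364 FPKM), RPL36A (0.610 ± 0.276) and RPL17 (26.2 ± 3.17) were far below the median of 828 FPKM over 81 ribosomal protein genes, and each shares a read-through gene in RefSeq. Whether the counting of shared reads sets these levels was not tested.

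FOXR1 and IL10RA on chromosome 11 are given with the genes beside them among the listed genes. IL10RA and the neighbours were chosen after their values were seen. FOXR1, a forkhead factor (chr11:118971761-118981287), stood at 78.3, 68.8 and 77.1 FPKM, while UPK2 before it was at 0.0545 FPKM and CENATAC after it at 5.40 FPKM. Farther out stood BCL9L at 12.9 FPKM on one side and RPS25 at 1455 and TRAPPC4 at 20.4 FPKM on the other. IL10RA, the interleukin 10 receptor of leukocytes (chr11:117986394-118003037), stood at 68.8, 61.1 and 51.1 FPKM, between TMPRSS13 at 0.00918 and SMIM35 at 0.0663 FPKM, with FXYD6 beyond TMPRSS13 at 15 FPKM. Of the leukocyte list CD68 (114 FPKM) and ITGAX (2.41 FPKM) were expressed, while the others analysed, such as CD3D (0.510 FPKM) and PTPRC (0.00133 FPKM), were below 1 FPKM.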
